A study of Mus musculus with 7 samples.

Results

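The regions described here are the stretches of open chromatin that lie closest to the distal ends of the 19 mouse autosomes in muscle stem cells (MuSCs). ATAC-seq, in which the transposase Tn5 cuts and tags accessible DNA, gave a list of MACS peaks for each of 4 libraries. Peaks that shared at least 1 bp were merged, and a merged region was kept when it lay wholly within the last 2 Mb of a chromosome on the telomere side, in coordinates of GRCm38 (mm10). This gave 1989 distal regions of 122720 merged regions in the genome. The window from 10 to 12 Mb from the same ends, the inner window, held 2066 regions and served for comparison. The choice of regions used position only, so presence in either genotype, fold and TRF2 peaks were not used to choose them.

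Both Control and TRF2KO MuSCs came from uninjured hindlimb muscle (0 h), with 2 ATAC libraries per genotype. According to the study's methods, TRF2KO mice carried floxed Terf2 alleles and a Cre-ER driven from the Pax7 locus, so that tamoxifen deleted the gene in MuSCs and not in the rest of the animal. The libraries were grouped by their titles, because the genotype field reads wild type for all of them. Binding of TRF2 was measured by CUT&Tag, in which an antibody directs Tn5 to a chromatin protein, in 2 libraries from wild-type MuSCs with 1 IgG library as background. Their labels place these cells 3 days after notexin injury of the tibialis anterior muscle, and the methods give an earlier time and a Cre- and reporter-bearing control strain. Open chromatin and TRF2 binding therefore came from different states of the muscle. The number and age of the animals behind each library are not given in the sources used here, so the spread between libraries may be partly technical. MuSCs were sorted as α7-integrin-positive, VCAM- or CD34-positive cells that lacked CD45, CD31, CD11b and Sca1.

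A telomere is a long array of the hexamer TTAGGG that caps the chromosome. The shelterin complex coats it, and within shelterin TRF2 binds double-stranded TTAGGG repeats and keeps the end from being handled as a DNA break. Mouse autosomes are acrocentric: the centromere sits almost at one end of the sequence, and the other end, described here, runs through gene-bearing subtelomeric DNA into the distal telomere. TRF2 is also known to bind outside telomeres, including G-rich sequence that can fold into G-quadruplexes.

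In the reference genome each distal end closes with a run of unknown bases, so that the sequence stops short of the last coordinate. Of 19 assembled ends, 18 closed with at least 3 consecutive TTAGGG units, and chromosome 4 had none. The last 150 known bases of chromosome 4 are given from GRCm38, plus strand, 5′ to 3′, because this end is the exception among the 19 and is described beside the others. They are in lower case throughout, since capitals would mark complete TTAGGG units and there were 0.
chromosome 4, chr4:156357967-156358116: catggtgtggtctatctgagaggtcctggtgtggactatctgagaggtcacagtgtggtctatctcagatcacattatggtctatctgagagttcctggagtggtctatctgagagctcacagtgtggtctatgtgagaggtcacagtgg

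The labels were checked on the targeted gene, which lies on chromosome 8 outside the distal window. The MACS fold is the fragment pileup at a peak's summit over the local background. At the start of Terf2 the Control libraries had folds of 54.3 and 48.4, whereas TRF2KO had 21.5 and 18.6 (log2 difference -1.32, SE 0.11, limma adjusted p = 2.13e-08), with no overlap of the genotypes. In such sorted populations a signal lost in some cells and a lower signal per cell cannot be told apart. The MACS lists held 84102 to 100521 peaks per ATAC library, 12290 and 15479 in the TRF2 libraries and 656 in the IgG library. The median summit pileup was 28 to 31.5 fragments in ATAC-seq and 9 in CUT&Tag, and the local background was higher in Control replicate 2 (4.56) than in the other ATAC libraries (3.35 to 3.41). All 7 MuSC marker genes had an ATAC peak at their start in every library, and none of 3 leukocyte markers had one in any. Weaker peaks lay at 2, 3, 2 and 2 of 3 endothelial markers in Control replicates 1 and 2 and TRF2KO replicates 1 and 2, and at 2, 1, 2 and 2 of 3 fibro-adipogenic markers, of which Pdgfra had folds of 15.4 and 10.4 in Control and 10.1 and 12.9 in TRF2KO.

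At the very end of the sequence, open regions that held telomeric repeats also carried TRF2 peaks. Of the 19 ends, 13 had an ATAC region in the last 1 kb of known sequence, and at 12 of them that region held TTAGGG repeats. These 12 were chromosomes 1, 2, 3, 7, 10, 11, 12, 13, 14, 16, 18 and 19. All 12 carried a TRF2 peak in both TRF2 libraries, and 8 of 12 also carried an IgG peak. The ends with an open repeat region had 35 to 114 units in the last 1 kb, whereas the 6 ends with repeats and no such region (chromosomes 5, 6, 8, 9, 15 and 17) had 6 to 22.

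The TRF2 folds at these 12 ends ranged from 11.6 to 40.8 with a median of 24.2 in TRF2 replicate 1, and from 12.6 to 49.4 with a median of 30.8 in TRF2 replicate 2. Every one ranked at or above the percentile 98.3 of its own library's list. The 8 IgG peaks at these ends also ranked high in the IgG list, from percentile 69.4 to 99.5 with a median of 97.9. The summit of the TRF2 peak lay within the repeat at 12 of 12 ends in both libraries, at a median of 180.5 and 185.5 bp from the last known base. The ATAC summits lay within the repeat at 9 of 11 ends in each Control library. In TRF2KO replicates 1 and 2 they did so at 8 of 10 and 9 of 12 ends. On chromosome 7 every ATAC summit lay outside the repeat, 600 to 921 bp from the last known base, against 83 and 88 bp for TRF2. Chromosome 12 had the highest TRF2 fold, with 40.8 and 49.4, against 37.1 in the IgG library. Where an IgG peak was present, the TRF2 folds were above the IgG fold in both libraries at 8 of 8 ends. The IgG folds at these ends reached 6.64 to 37.1, and the IgG summits also lay in the repeat at 8 of 8. On chromosomes 3, 7, 11 and 18 there was no IgG peak.

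**Figure D1:**
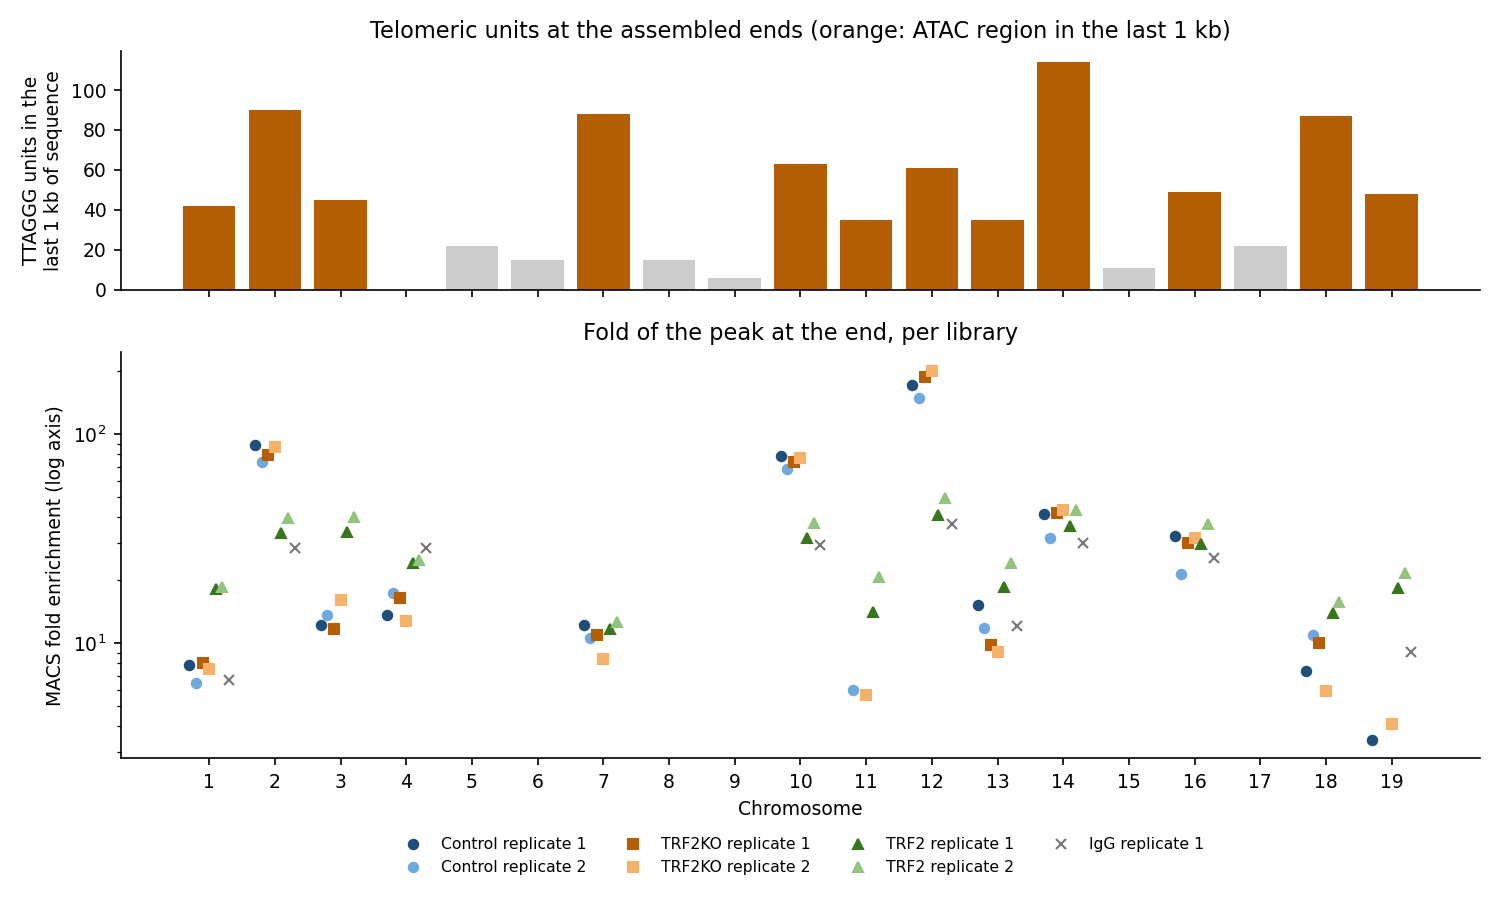
Number of TTAGGG units in the last 1 kb of known sequence of each autosome (upper panel, orange where an ATAC region lay in that 1 kb, grey where none did) and MACS fold of the peak at the end in each library (lower panel, logarithmic axis; circles, Control; squares, TRF2KO; triangles, TRF2; crosses, IgG). The ends with an open repeat region had 35 to 114 units, and the ATAC folds of Control and TRF2KO lay close together at each end.

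The ATAC folds differed far more between ends than between genotypes. On chromosome 12 they were 172 and 148 in Control and 187 and 201 in TRF2KO. On chromosome 2 they were 88.8 and 73.2 against 79.4 and 87.2, and on chromosome 10 they were 78.7 and 68.0 against 73.6 and 77.2. The genotypes overlapped on chromosomes 2 and 10, and both TRF2KO libraries lay above both Control libraries on chromosome 12. Chromosome 14 had 41.4 and 31.9 against 41.9 and 43.6, and chromosome 16 had 32.7 and 21.4 against 30.2 and 32.0, the former with both TRF2KO libraries on top and the latter with overlap. At the lower end, chromosome 13 had 15.2 and 11.9 in Control against 9.83 and 9.08 in TRF2KO, the only end at which both Control libraries were the higher pair. Chromosome 3 (12.2 and 13.7 against 11.7 and 16.1), chromosome 7 (12.2 and 10.6 against 10.98 and 8.40), chromosome 1 (7.82 and 6.48 against 8.005 and 7.49) and chromosome 18 (7.36 and 10.98 against 10.1 and 5.90) were weaker, and the genotypes overlapped at each. The chromosome 11 end had a MACS peak in Control replicate 2 (5.94) and TRF2KO replicate 2 (5.67) only, although GoPeaks, another caller, had a region there in all 4 libraries, and the chromosome 19 end had peaks in Control replicate 1 (3.45) and TRF2KO replicate 2 (4.09) only. Each of these ends thus had a peak in 1 library of either genotype.

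Of the 10 repeat regions with a peak in all 4 libraries, none was called different between genotypes by limma. Their log2 differences, TRF2KO minus Control, ran from -0.35 to 0.29 with a median of 0.04, and the lowest adjusted p was 0.129. Without adjustment 3 of 10 had p under 0.05, all 3 higher in TRF2KO. Over all tested regions 26.2% had such a p, in either direction. Before normalization both Control libraries were above both TRF2KO libraries at 1 end (chromosome 13) and below them at 2 (chromosomes 12 and 14) of these 10. Over all regions with a peak in the 4 libraries, 29.9% were lower in TRF2KO without overlap and 18.5% were higher without overlap. The methods keep uniquely aligned reads for CUT&Tag and do not state this for ATAC-seq, and the peak lists hold positions and no reads, so a repeat read placed at an end cannot be told apart from a read of another chromosome's telomere.

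The chromosome 4 end differed from the rest in holding no repeat. Its region at chr4:156356805-156357514 lay 602 bp from the last known base, 12605 bp from the pseudogene Vmn2r125. The ATAC folds were 13.6 and 17.5 in Control and 16.5 and 12.7 in TRF2KO, so the genotypes overlapped. The TRF2 folds of 24.2 and 24.9 were both below the IgG fold of 28.7. Among the ends with repeats and no ATAC region, a TRF2 peak lay at the end of chromosome 5 in TRF2 replicate 2 (16.7), and of chromosomes 6 (12.3) and 9 (5.11) in TRF2 replicate 1, each in a single library.

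At the other 6 ends the outermost open region lay further in. On chromosome 17 it was at the start of the long non-coding gene Gm20939, 22127 bp from the last known base, with ATAC folds of 4.60 and 5.22 in Control and 8.23 and 5.22 in TRF2KO and TRF2 folds of 6.50 and 10.2. On chromosome 8 it was at the start of Gm32856 (37179 bp; ATAC 23.0 and 20.5 against 25.2 and 20.7; TRF2 9.20 and 7.11), and on chromosome 6 at the start of Bicd1, an adaptor of dynein transport (176884 bp; ATAC 28.5 and 27.2 against 30.4 and 35.9; TRF2 5.73 and 8.69). The 3 outermost regions just named carried TRF2 in both libraries. The remaining 3 did not: near Gm26463 on chromosome 5 (29069 bp) no peak passed in Control replicate 1, and the regions near Mucl2 on chromosome 15 (36253 bp) and at Ppp2r3d on chromosome 9 (18186 bp) rested on 1 library each.

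Telomeric repeats were rare in open chromatin elsewhere. Runs of 3 or more TTAGGG units, read on both strands, were found in 14 of 1989 distal regions (0.704%), in 1 of 2066 inner regions (0.0484%) and in 46 of all regions (0.0375%). Apart from the 12 ends these were a region at the start of Ogfr, the opioid growth factor receptor, and a region near Gm16008 on chromosome 4, both with 3 units, a peak in all 4 ATAC libraries and no TRF2 peak. The inner region, chr3:149052473-149052971, held 9 units and had TRF2 folds of 31.2 and 37.8 with an IgG fold of 15.8.

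Over the whole distal window, repeat ends included, a larger share of regions carried a TRF2 peak than further in. A TRF2 peak in both libraries was present in 206 of 1989 distal regions (10.4%, exact 95% interval 9.05 to 11.8), against 72 of 2066 inner regions (3.49%, 2.74 to 4.37) and 5.7% of all merged regions. These intervals cover counting error only, and neighbouring regions are not independent. The 14 other 2-Mb windows out to 30 Mb from the end lay between 3.49% and 6.29%, with a median of 5.11%. The inner window was thus the lowest of the 14 windows, and the distal share exceeded the highest of them as well. The share was higher in the distal than in the inner window on 19 of 19 chromosomes, and leaving out any chromosome kept it between 10.1% and 10.9% distally and between 3.26% and 3.74% in the inner window.

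The numbers of peaks in the lists differed less clearly. TRF2 replicate 1 had 301 distal and 155 inner peaks, and TRF2 replicate 2 had 354 and 218, which is 24.5 and 22.9 distal peaks per 1000 of the library against 12.6 and 14.1. Over the 14 other windows the peak numbers ran from 155 to 301 with a median of 232 in TRF2 replicate 1 and from 218 to 389 with a median of 307.5 in TRF2 replicate 2, so the distal numbers were high but inside the range of the other windows, each of which held more ATAC regions. The 4 ATAC libraries had 15.6 to 16.5 per 1000 in the distal and 16.1 to 16.8 in the inner window. The IgG library also had more distal than inner peaks, 24 (exact 95% Poisson interval 15.4 to 35.7) against 12 (6.20 to 20.96) and 5 to 18 in the other windows, and so the ratio of distal to inner peaks was 2.00 in IgG beside 1.94 and 1.62 in TRF2. An exact sign-flip test over 2 TRF2 libraries cannot reach 0.05, and no test of this ratio was made. IgG peaks fell in 17 distal regions, 16 of them among the 206 with TRF2. Without regions that held an IgG peak the shares were 9.63% in the distal window (190 of 1972) and 3.44% in the inner window (71 of 2061). Of the distal TRF2 peaks, 89.0% and 84.5% lay inside an ATAC region in the 2 libraries, against 74.8% and 71.1% of the inner ones.

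**Figure D2:**
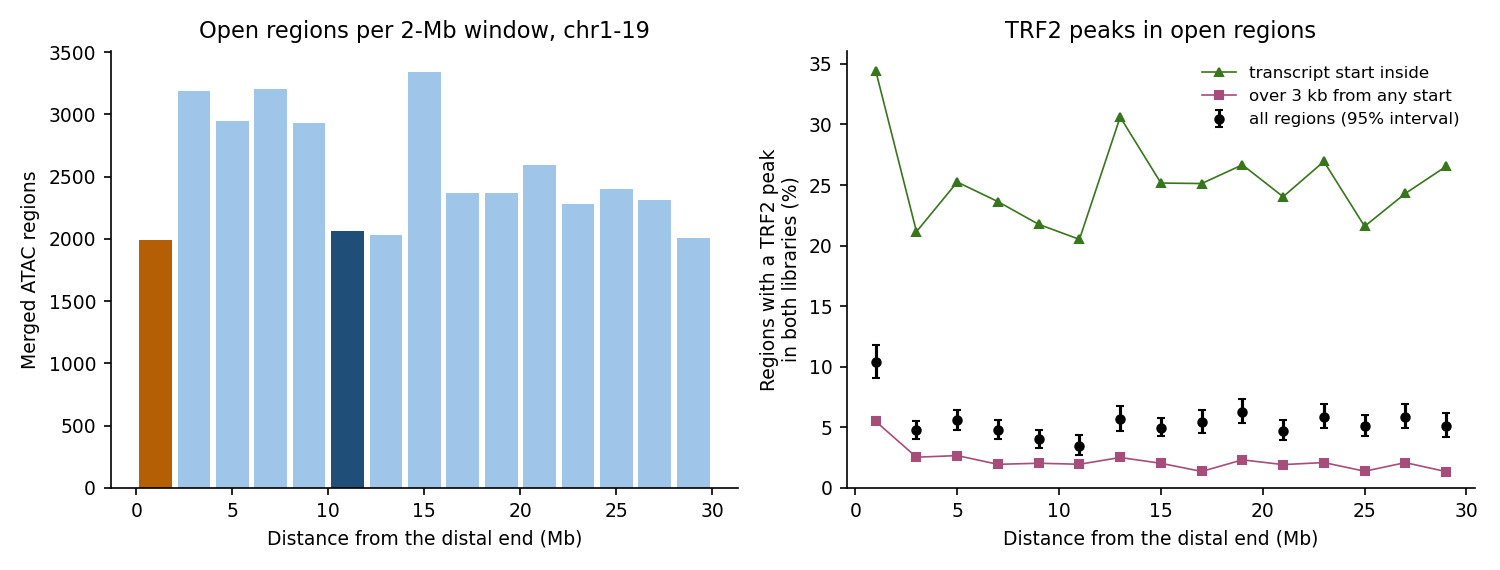
Number of merged ATAC regions in each 2-Mb window from the distal end of chromosomes 1 to 19 (left; orange, distal window; dark blue, inner window) and percent of regions with a TRF2 peak in both TRF2 libraries (right; black circles, all regions with exact 95% intervals; green triangles, regions with a transcript start inside; purple squares, regions more than 3 kb from any start). The last 2 Mb had the highest TRF2 share in all 3 series, at 10.4%, 34.4% and 5.48%.

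The TRF2 share fell with distance from the last known base. In the last 1 kb it was 13 of 14 regions, and from 10 to 50 kb it was 8 of 19 (42.1%). It was 40% from 50 to 100 kb (14 of 35), 23.5% from 100 to 250 kb (24 of 102), 11.4% from 250 to 500 kb (24 of 211), 9.12% from 500 kb to 1 Mb (51 of 559) and 6.88% from there to the inner edge of the window (72 of 1046). The step was therefore steepest within 250 kb, where 59 of 173 regions (34.1%) carried TRF2, and the remainder of the window (147 of 1816, 8.09%) still lay above every other 2-Mb window. The 3 regions from 1 to 10 kb had none. Leaving out the 14 regions of the last 1 kb gave 9.77%.

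The TRF2 share was higher at transcript starts than away from them, and the distal share exceeded the inner one in both places. How much of the difference goes with position relative to genes was not tested. A transcript start lay inside 395 distal regions (19.9%), 195 inner regions (9.44%) and 15.3% of all regions. Regions with a start inside carried TRF2 in 34.4% of cases distally and in 20.5% in the inner window, with 26.6% over all regions. Regions over 3 kb from any start carried it in 5.48% against 1.95%, with 2.09% over all regions. Within 250 kb of the last known base the shares were 66.7% at starts (30 of 45, no IgG peak) and 26.8% away from starts (26 of 97, 11 with an IgG peak). Beyond 250 kb they were 30.3% and 3.37%. Counted over the starts of coding genes instead of over regions, the windows were closer: a TRF2 peak in both libraries lay within 1 kb of 122 of 493 distal starts (24.7%) and of 38 of 170 inner starts (22.4%), with 23.3% over all autosomal coding genes, and the exact intervals overlapped. These counts include 176 distal and 42 inner starts without an ATAC peak. Among starts with a peak in all 4 ATAC libraries the shares were 42.3% (121 of 286) and 33.6% (38 of 113). Over all autosomal coding genes that share was 37.5%, and the distal and inner intervals again overlapped. Base composition differed as well, with a median GC content of 52.8% in distal and 50% in inner regions. The 14 other windows ran from 50% to 52.97% with a median of 52.4%, so the inner value was the lowest. In each GC class the distal share was the higher, but the gap varied. It was 11.8% against 3.04% in regions with 50 to 55% GC. At 60% GC or more it was 12.0% against 9.73%, with 13.1% over all regions. Under 40% GC, 1 of 35 distal and 0 of 90 inner regions carried TRF2.

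Regions with TRF2 were wide and open in every library. Of the 206, 197 had an ATAC peak in all 4 libraries (95.6%), their median width was 1541 bp, 66.0% held a transcript start and 52.9% held a G-quadruplex pattern, here 4 runs of 3 or more G, with 1 to 7 bases between runs, on the plus or the minus strand. Of the 1648 distal regions without TRF2 in either library, 41.4% had a peak in all 4 ATAC libraries, the median width was 453 bp, 11.7% held a transcript start and 18.4% held the pattern. The inner regions with TRF2 were alike, with 91.7% open in all 4 libraries, a median width of 1669 bp and 51.4% with the pattern. The TTAGGG repeat itself matches this pattern.

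The highest TRF2 folds outside the repeats fell on a few regions with extreme ATAC folds. The region chr9:123461792-123462357 lay in a UTR of Lars2, the mitochondrial leucyl-tRNA synthetase, and had ATAC folds of 1244 and 1027 in Control and 1323 and 1220 in TRF2KO, TRF2 folds of 33.7 and 35.6 and an IgG fold of 11.5. The region chr1:195241271-195242089 near the small non-coding gene Gm27940 had ATAC folds of 796 and 641 against 761 and 689 and TRF2 folds of 26.9 and 31.4 with no IgG peak. The region chr19:61266348-61267282 near the pseudogene CR555305.2 had 558 and 450 against 497 and 497, with TRF2 folds of 25.5 and 27.4 and an IgG fold of 9.81. All 3 ranked at or above the percentile 99.97 in every ATAC library. The study removed blacklisted regions only when it built its consensus, a step after the lists used here, and whether these 3 belong to the blacklist was not tested. At coding gene starts the highest TRF2 folds, by the lower of both libraries, were at Tmx3, a disulfide isomerase of the endoplasmic reticulum (14.2 and 15.7), and Nadk, the NAD kinase (10.6 and 12.3), neither with an IgG peak.

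The distal windows held 55.8 regions per Mb of known sequence and the inner windows 54.9. By raw count both were at the low end along the chromosome: the 1989 distal regions were fewer than in any of the 14 other windows, which held 2008 to 3344 with a median of 2384. The raw count is lowered by the unknown bases at the ends, since the distal windows held 35.6 Mb of known sequence and the inner windows 37.6 Mb. With windows taken from the last known base there were 2166 distal and 2045 inner regions. The log2 ratio of distal to inner peak number was -0.02 ± 0.03 (SD, n = 4 libraries; exact two-sided sign-flip test, p = 0.5, 4 libraries cannot reach 0.05), and against the window from 8 to 10 Mb it was -0.51. The distal windows held 493 coding starts against 170 in the inner windows. The 14 other windows held 170 to 467 with a median of 400, so the inner number was the lowest. On 10 of 19 chromosomes there were more distal than inner regions, and the median width was 538 bp distally and 499 bp in the inner window. The regions were unevenly spread: chromosome 4 had 285, chromosome 11 had 256, chromosome 7 had 235, chromosome 15 had 230 and chromosome 2 had 204, together 1210 of 1989, whereas chromosomes 3, 17 and 18 had 6, 7 and 9. The densest stretches of 100 kb, with 35 regions each, held Actg1 and Bahcc1 on chromosome 11 and Ski and Faap20 on chromosome 4, and a stretch of chromosome 15 with 28 held the HoxC cluster. By position, 623 distal regions were intergenic, 619 intronic, 395 at a transcript start, 206 in exons and 146 in UTRs.

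The amount of open chromatin near the ends could not be separated between genotypes with 2 libraries each. Control libraries had 1395 and 1644 distal peaks and TRF2KO libraries 1369 and 1385. Both TRF2KO values lay below both Control values (1519.5 ± 176 against 1377 ± 11.3, SD, n = 2; difference -142.5; exact two-sided permutation test, p = 0.3333, the smallest this design allows). The inner window showed the same order, with 1450 and 1632 against 1367 and 1413. Per 1000 peaks of the library the distal numbers were 15.6 and 16.4 in Control and 16.1 and 16.5 in TRF2KO, so the groups overlapped (difference 0.308, exact permutation p = 0.667). The log2 ratio of distal to inner peaks differed by 0.01 between genotypes (exact permutation p = 1).

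Presence in 1 genotype only was uncommon. A peak in all 4 libraries was found in 995 distal regions (50.03%, exact 95% interval 47.8 to 52.2), against 47.3% of inner regions and 50.2% of all regions. A Control-specific region, with a peak in both Control libraries and in neither TRF2KO library, occurred 79 times (3.97%; all regions, 4.48%; inner window, 4.21%). A TRF2KO-specific region, defined the other way round, occurred 21 times (1.06%; all regions, 1.12%; inner window, 2.03%). Both distal shares lay near those of all regions. A further 654 regions (32.9%) had a peak in 1 library, 318 of them in Control replicate 2 alone, the library with the highest background, whose part in this was not tested. A missing peak means that the threshold was not passed, and 34 of the 79 and 11 of the 21 had a region of another caller in the other genotype. None of the 493 distal coding starts had peaks in both libraries of one genotype and in none of the other. Such starts were rare everywhere, with 82 in Control only and 48 in TRF2KO only among 20807 autosomal coding genes. The genotype-specific region nearest to a chromosome end lay 71261 bp from the last known base, and of the 100 such regions 1 carried TRF2 in both libraries. Over the whole genome 33 of 5500 Control-specific and 13 of 1380 TRF2KO-specific regions did so.

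**Figure D3:**
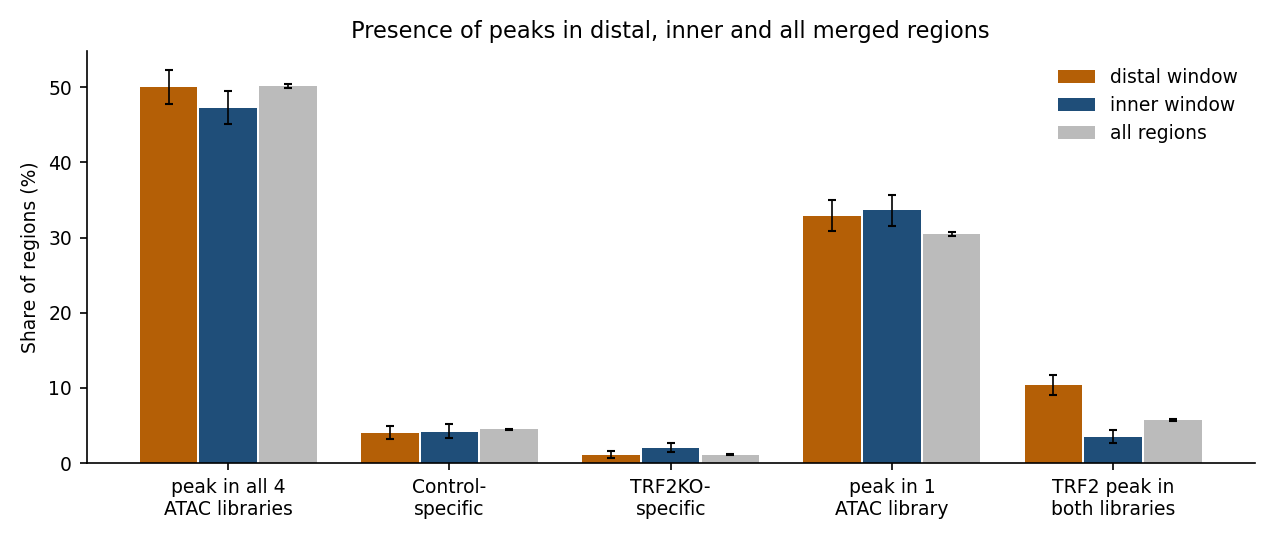
Percent of regions in the distal window (orange, n = 1989), the inner window (blue, n = 2066) and the whole genome (grey, n = 122720) that had a peak in all 4 ATAC libraries, in both libraries of 1 genotype only, in 1 library, or a TRF2 peak in both TRF2 libraries; bars start at 0 and error bars are exact 95% intervals. The distal window stands apart in the TRF2 share, at 10.4%, and lies near the genome in the ATAC classes.

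The genotype-specific regions had low folds, with a median of 3.96 (2.52 to 14.4) for Control-specific and 3.66 (2.72 to 6.404) for TRF2KO-specific regions. The strongest Control-specific region lay in an intron of Prpf6, a component of the U5 snRNP of the spliceosome, at chr2:181617032-181617728, with folds of 11.3 and 14.4. The next 4 were near the pseudogene Gm49294 on chromosome 14 (8.51 and 7.92), near AC105061.1 on chromosome 19 (7.82 and 8.82), near AC158982.1 on chromosome 14 (8.05 and 7.56) and in an intron of Ppfia1, the scaffold protein liprin-α1, on chromosome 7 (8.28 and 7.02). In each of these 5 GoPeaks had a region in both Control libraries and in neither TRF2KO library. The strongest TRF2KO-specific regions were at the start of the long non-coding gene Gm32250 on chromosome 1 (6.404 and 5.45), 313040 bp from Mir21c on chromosome 8 (5.03 and 6.36), near Gnb1, the G protein β1 subunit, on chromosome 4 (5.03 and 5.45), near Ssu72, a phosphatase of the RNA polymerase II tail, on chromosome 4 (4.80 and 6.13), and near Gm24802 on chromosome 1 (4.80 and 4.31). At Gnb1 and Ssu72 another caller had a region in a Control library as well.

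Differences in degree were tested by limma on the quantile-normalized log2 fold of the 61610 regions with a peak in all 4 libraries, of which 995 lay in the distal window. Of the distal regions, 71 were lower in TRF2KO (7.14%; all tested regions, 7.32%) and 54 were higher (5.43%; all tested regions, 4.94%) at an adjusted p under 0.05. Both shares lay near those of all regions, and the median log2 difference was 0.04 distally, 0.04 in the inner window and 0.02 over all regions. The inner window had 62 lower and 64 higher of 977. The split depended on scaling, since centring on the median gave 62 lower and 222 higher distal regions and no normalization gave 60 and 12. No region was called once any 1 library was left out (lowest adjusted p 0.304 to 0.360), when 1 residual degree of freedom remained.

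Among regions with TRF2, higher calls outnumbered lower ones. Of the 197 distal regions with TRF2 in both libraries, 6 were lower (3.05%) and 17 higher (8.63%), and of the other 798, 65 were lower (8.15%) and 37 higher (4.64%). Over all tested regions with TRF2 the shares were 3.71% lower and 6.52% higher. Distal regions with a transcript start inside had 9 lower and 23 higher of 340. These splits were not tested, and they were not recomputed under another scaling.

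**Figure D4:**
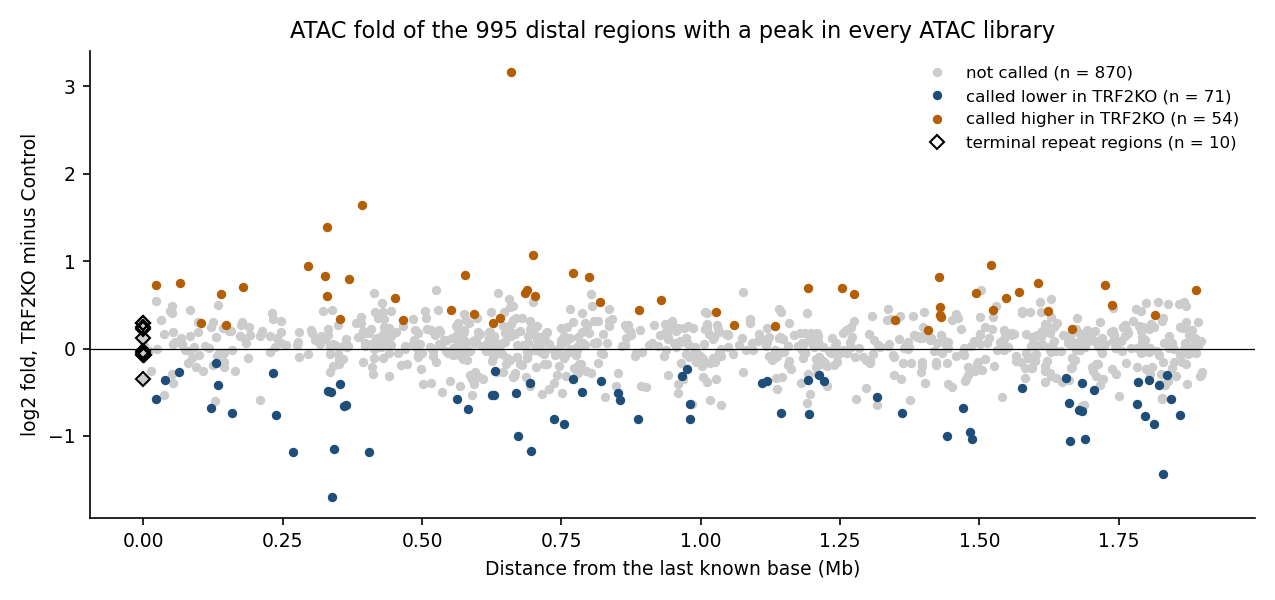
Difference in log2 fold, TRF2KO minus Control, of the 995 distal regions with a peak in every ATAC library, by distance from the last known base in Mb (blue, 71 called lower; orange, 54 called higher; grey, 870 not called; open diamonds, the 10 terminal repeat regions). Calls in both directions occur along the whole window, and the terminal repeat regions lie between -0.35 and 0.29.

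By chromosome, the called regions were 14 lower and 3 higher of 136 tested on chromosome 15, 14 and 3 of 105 on chromosome 7, 12 and 3 of 92 on chromosome 2, and 4 and 15 of 124 on chromosome 11, beside 7.32% lower and 4.94% higher over all tested regions. These differences between chromosomes were not tested. Among stretches of 500 kb slid along every distal end, chr7:144841460-145341459 held the most lower regions, 11 among 44 tested. This stretch was picked for that count after the values were seen. It spans Ccnd1, which encodes cyclin D1, the driver of entry into the cell cycle from G1, and the long non-coding gene Gm45181. By nearest gene, picked after the values were seen, 3 of 12 tested regions at Ccnd1 and 4 of 9 at Gm45181 were lower, as were 3 of 3 at Sox18, 3 of 8 at Lama5 and 3 of 6 at Tns2, while 3 of 10 at Bahcc1 were higher.

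The region with the lowest p among those lower in TRF2KO was chr2:181672772-181674525, 1132 bp upstream of Sox18, a transcription factor of blood and lymphatic vessel development. Its folds were 36.6 and 37.3 in Control and 10.3 and 11.1 in TRF2KO, and the genotypes did not overlap (log2 difference -1.70, SE 0.15, limma adjusted p = 3.85e-08). The other 2 Sox18 regions had folds of 9.21 and 10.8 against 4.35 and 3.86, and 23.7 and 22.1 against 13.7 and 16.6. Of 3 endothelial marker genes, Pecam1 had folds of 5.29 and 3.96 in Control and 7.09 and 4.09 in TRF2KO, Kdr had 6.67 and 5.76 against 7.09 and 7.49, and Cdh5 had a peak in Control replicate 2 only (3.42). The part of endothelial cells in the Sox18 values was not tested.

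At Ccnd1 the lower regions lay on both sides of the start. An exonic region at chr7:144932657-144936370 had folds of 30.4 and 30.6 in Control and 14.2 and 11.1 in TRF2KO (log2 difference -1.18, limma adjusted p = 6.70e-06). A region 40132 bp upstream, chr7:144980057-144982194, had 59.1 and 49.1 against 33.4 and 34.7 (log2 difference -0.66, adjusted p = 6.19e-05). Both Control libraries were above both TRF2KO libraries in each. The wide region that holds the start was not called, with highest folds of 52.7 and 45.5 against 54.7 and 49.3 (log2 difference 0.06), although the peak within 1 kb of the start itself had 47.4 and 45.5 in Control and 25.4 and 21.6 in TRF2KO. The value tested was the highest fold within a merged region, which here held more than 1 summit. A smaller region 31111 bp upstream, the only called Ccnd1 region with TRF2 in both libraries, was higher in TRF2KO (5.52 and 4.86 against 8.23 and 7.94; log2 difference 0.80).

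Near Gm45181 the region chr7:145071617-145072913 had 19.8 and 18.5 in Control against 7.55 and 7.72 in TRF2KO (log2 difference -1.18, limma adjusted p = 7.76e-05). At Itga5, the integrin chain of the fibronectin receptor, a UTR region at chr15:103358543-103360954 had 50.9 and 46.3 against 32.9 and 26.8 (log2 difference -0.69, adjusted p = 7.98e-05) and carried TRF2 in both libraries (4.86 and 8.62). The Itga5 start, with 36.6 and 31.0 against 45.1 and 32.2, was not called. At Tns2, which encodes the focal adhesion protein tensin 2, the strongest region had 9.90 and 9.54 against 4.12 and 2.72 (log2 difference -1.44, adjusted p = 2.29e-04).

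The largest difference among distal regions was an increase. The region chr4:155696396-155697696, in a UTR of Fndc10, a gene for a fibronectin type III domain protein, had folds of 6.67 and 8.998 in Control and 73.2 and 62.0 in TRF2KO (log2 difference 3.17, SE 0.16, limma adjusted p = 3.36e-12). It carried no TRF2 peak. The other Fndc10 region nearby had 9.21 and 9.54 against 10.98 and 12.7 and was not called. At Bahcc1, a gene for a chromatin protein with a BAH domain, an intronic region at chr11:120250468-120258068 had 79.2 and 62.4 against 125 and 126 (log2 difference 0.73, adjusted p = 2.79e-07) and carried TRF2 in both libraries (5.04 and 5.10).

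The other 3 of the 5 higher regions with the lowest p lay near Amn1 on chromosome 6 (5.52 and 5.76 against 14.9 and 17.5; log2 difference 1.64, limma adjusted p = 6.71e-06), in an intron of the antisense gene Faddos on chromosome 7 (19.6 and 16.6 against 31.1 and 30.9; log2 difference 0.87, adjusted p = 6.56e-05) and in an intron of B3gntl1 on chromosome 11 (4.37 and 4.32 against 11.2 and 9.76; log2 difference 1.40, adjusted p = 1.03e-04). Since the 10 regions were named for their low p, the lack of overlap in them is no further evidence. Their direction was the same under each of the 10 alternatives run, but not every alternative could change it. The window from the last known base left each fit unchanged. Dropping the intensity trend or adding the replicate block cannot change a log2 difference. Without the trend, the upstream Ccnd1 region and the Itga5 and Bahcc1 regions were not called (limma adjusted p = 0.0615, 0.0608 and 0.0539).

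**Figure D5:**
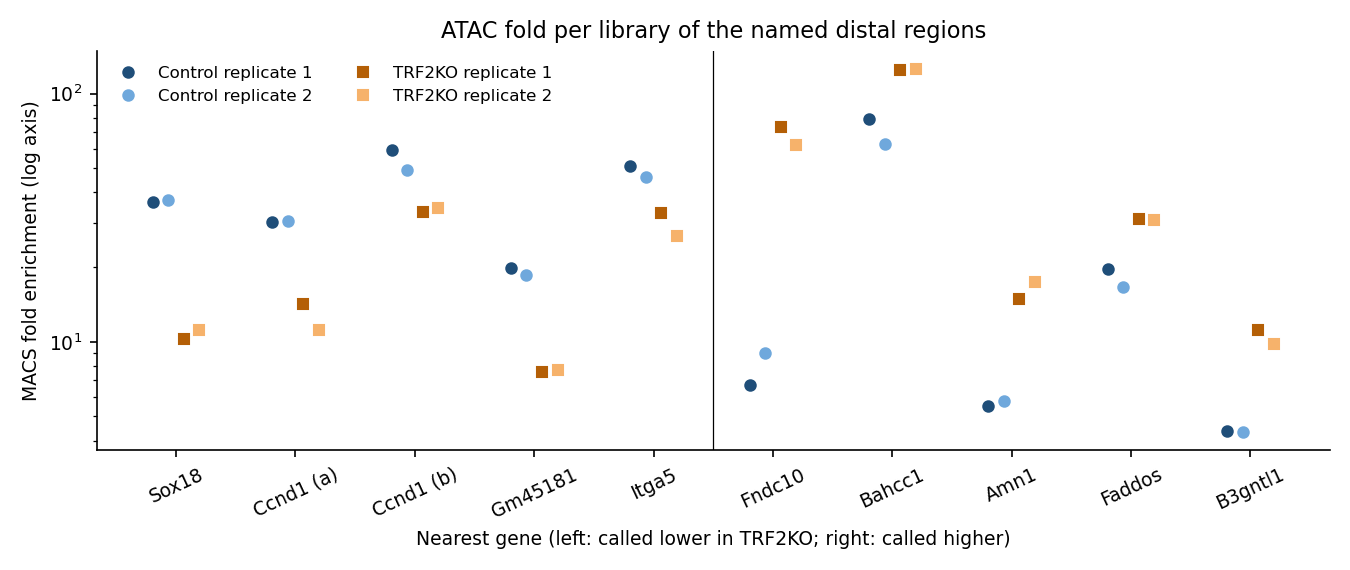
MACS fold, on a logarithmic axis, in each ATAC library (circles, Control; squares, TRF2KO) of the 5 distal regions with the lowest p in each direction, named by the nearest gene; Ccnd1 (a) is the exonic region and Ccnd1 (b) the region 40132 bp upstream. The regions were chosen by p, so Control and TRF2KO are apart by choice (over all tested regions 29.9% and 18.5% were lower and higher without overlap), and Fndc10 shows the widest gap, from 6.67 and 8.998 to 73.2 and 62.0.

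Of 159 genes on lists for MuSC identity, growth factors and cell cycle, myogenic structure, telomere maintenance, integrins and basement membrane, and other cells of muscle, 24 start within the distal windows. Of these 24, 16 had a peak within 1 kb of the start in all 4 ATAC libraries, 6 had no peak in any, and 6 carried TRF2 in both libraries. The 6 with TRF2 were Cd34, a surface marker of quiescent MuSCs, the integrin chains Itgb1, Itgb7 and Itgb8, the SMAD corepressor Ski, and Agrn, the organizer of the neuromuscular junction. Those without peaks included the growth factor genes Fgf3 and Fgf10 and the chemokine receptor genes Ccr1, Ccr2 and Cxcr6 of leukocytes. Among all 20807 autosomal coding genes, 61.9% had a peak at the start in all 4 ATAC libraries and 6645 had none in any. A TRF2 peak in both libraries lay at 23.3% of them. The listed genes lay near these shares and were not tested against them.

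The counts of called regions near listed genes are set against 7.32% lower and 4.94% higher over all tested regions, and the lists were not tested. Among MuSC identity genes 2 of 20 regions were lower and 0 higher, a share near that of all regions, both at Itga7, the α7-integrin chain used to sort these cells. The wide region over its start had folds of 73.4 and 68.0 in Control and 60.4 and 56.1 in TRF2KO (log2 difference -0.34, limma adjusted p = 0.00658), and the peak within 1 kb of the start itself had 73.4 and 68.0 against 34.99 and 56.1. A region 1914 bp upstream had 10.6 and 8.28 against 4.35 and 3.86 (log2 difference -1.05, adjusted p = 0.00249). Both Control libraries were the higher pair at both regions. The start regions of Cd34 (23.0 and 20.2 against 28.4 and 23.2), Itgb1 (98.7 and 86.0 against 104 and 90.6), the Notch target Hes5 (9.21 and 9.18 against 9.61 and 8.17) and the cell cycle inhibitor Cdkn1c (41.9 and 39.2 against 45.1 and 42.9) were not called.

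Among growth factor and cell cycle genes 3 of 31 regions were lower, all at Ccnd1, and 2 were higher, again near the shares of all regions. The second higher one lay 212 bp upstream of Ski, with 137 and 127 in Control and 178 and 173 in TRF2KO (log2 difference 0.26, limma adjusted p = 0.00320), and carried TRF2 (10.2 and 9.92). Among integrin and basement membrane genes 4 of 15 regions were lower and 0 higher, from 2 genes. These were the Itga5 region and 3 at Lama5, the laminin α5 chain, whose largest difference was at an intronic region (21.9 and 15.8 against 10.98 and 8.85; log2 difference -0.78, adjusted p = 0.00420). In myogenic structure 1 of 5 was lower, in an intron of the nicotinic receptor subunit gene Chrna4 (17.3 and 18.4 against 8.46 and 9.99; log2 difference -0.81, adjusted p = 0.00494). At Rtel1, a helicase that maintains telomeres and the only gene of the telomere list in these windows, neither of 2 regions was called, and the start had 29.9 and 22.1 against 27.4 and 29.7.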

How the data were processed

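Per the methods, written for CUT&Tag, the authors trimmed reads with Cutadapt 4.4, aligned them to mm10 with Bowtie2, removed duplicates with Picard 3.1.1, kept unique proper pairs with SAMtools 1.10 and called peaks per library with MACS3 3.0.0. For ATAC-seq the submitters' processing notes list Bowtie2 2.5.4, Picard 3.1.1, SAMtools 1.10 and MACS3 3.0.2 with no settings. SEACR was run in its stringent mode, while the MACS and GoPeaks thresholds, any Tn5 shift and the use of IgG in calling are not given in the sources used here. Each deposited MACS peak has a fold, a ratio over local background, with −log10 p and −log10 q values and a rescaled score that was not tested. The deposited SEACR regions carry a normalized coverage signal, and the GoPeaks regions carry positions. The authors' consensus lists, 1 per genotype, were not used.

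Members and gene lists were chosen with earlier results of these data known. Merging and counting used Python 3.11.15, pandas 2.3.3 and SciPy 1.17.1. Transcript starts came from GENCODE M21. Differences were fitted with limma 3.58.1 in R 4.3.3 (quantile-normalized log2 fold, intensity trend) and adjusted by Benjamini-Hochberg over 61610 regions. The scripts were tested on simulated data. Named were the outermost region per chromosome, repeat regions, listed genes, the 10 highest TRF2 folds, the 5 top genotype-specific regions by fold and the 5 lowest p per direction. Same-numbered libraries did not deviate together (r = 0.0109 over 61610 regions). Shares have exact binomial 95% intervals. A listed gene and the sequences of several chromosome ends are not reported here.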

Additional observations from a re-analysis of the deposited data

How the results depend on the processing

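Read depth is not given in the lists, and thresholds of the callers set how many weak peaks appear, so absence of a peak is the least firm result. The number of distal regions was 1149 with GoPeaks and 417 with SEACR in place of MACS, and 1713 to 1913 when 1 ATAC library was left out. The share with a peak in all 4 libraries was 66.6% with −log10 q of at least 5, 73.9% with GoPeaks and 61.9% with SEACR, and 53.9 to 59.9% when 1 library was left out. Control-specific regions numbered 3 with SEACR, 45 when no caller had a region in TRF2KO, and 122 to 403 when 1 library was left out. TRF2KO-specific regions numbered 10 with −log10 q of at least 5, 8 with GoPeaks, 6 with SEACR, 10 when no caller had a region in Control, and 38 to 143 when 1 library was left out. A group of 1 library needs fewer peaks to qualify.

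The TRF2 share was 17.1% distally and 9.54% in the inner window for a peak in either library, and 6.28% and 2.03% with −log10 q of at least 5. It was 13.1 to 14.4% and 5.66 to 7.36% with 1 TRF2 library left out, and 8.09% distally without the last 250 kb, an alternative chosen after seeing the data.

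The genotype difference in distal peak number was 66 with SEACR and otherwise below 0 (-267 to -18 with 1 library left out). Per 1000 peaks it was -0.0465 without Control replicate 1 (-0.0465 to 0.662 over the 4 such fits). The difference in the log2 ratio of distal to inner peaks was -0.00263 with windows from the last known base, -0.0240 without Control replicate 1 and -0.00627 without TRF2KO replicate 1 (-0.0240 to 0.0424). The log2 ratio itself was 0.102 with windows from the last known base, 0.00313 with −log10 q of at least 5, 0.0140 with GoPeaks and 0.213 with SEACR, none at a p that 4 libraries could bring under 0.05, and it was -0.507 and -0.0528 against the windows from 8 to 10 Mb and from 12 to 14 Mb, and -0.0275 to -0.00540 with 1 library left out.

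With limma, lower and higher calls were 62 and 222 under median centring, which moved the median of all regions to 0.10. They were 60 and 12 without normalization, 13 and 6 without the intensity trend, and 0 to 0 with any 1 library left out, when the lowest adjusted p was 0.304 to 0.360 and 66 to 76 lower and 59 to 79 higher distal regions had an unadjusted p under 0.05. With the replicate number as a replicate block, limma gave 78 lower and 63 higher, and the peak differences were -142.5 (exact p = 0.5), 0.308 (exact p = 0.5) and 0.00923 (exact p = 1). The numbers are shared labels and not a stated pairing. The block changed no other call. Of the values recomputed for the comparisons, 9 changed sign. A further 55 kept, where tested, their direction and side of the threshold, which leaves their size free to change, and otherwise stayed within the spread, or within 1.5 times for a count. The other 44 moved further. The tested values came from exact tests that cannot reach 0.05 with so few libraries. Their side of the threshold was therefore fixed in advance.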
